A study of Mus musculus with 12 samples.

Results

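The 10 genes described here encode subunits and inhibitors of canonical NF-kB, namely Nfkb1, Rel, Rela, Nfkbia, Nfkbib, Nfkbie, Nfkbid, Nfkbiz, Tnfaip3 and Tnip1. Their open chromatin was taken as every region of the deposited ATAC-seq table that overlapped a body of one of them, or lay nearer to it than to any other protein-coding gene, in a table where 16921 genes had a region. This gave 141 regions of the 94161 in the table, and 139 of them were among the 89782 regions with enough reads to be tested. ATAC-seq uses the Tn5 transposase, which cuts and tags accessible DNA, so the reads of a region measure how open it is. The libraries fell into 4 groups of 3, namely marginal zone B cells (MZB) labelled knockout for LSD1, wild-type MZB, follicular B cells (FoB) labelled knockout, and wild-type FoB. LSD1, encoded by Kdm1a, removes methyl groups from histone H3. The means of deletion, and the cells that carried it, are not stated in the sources used here. All 4 groups were sorted from spleen of C57BL/6J females, without stimulation, and each library was made from 10000 sorted cells tagmented for 60 min. The age of the mice, and whether the 3 libraries of a group were separate animals or pools, are not given either, so a p-value reflects library-to-library spread, which may be technical. Both gates kept B220+ cells without Thy1.1, F4/80, CD11b, CD93 or GL7. The MZB gate then took CD23- CD21hi CD1d+ cells, and the FoB gate CD23+ CD21mid CD1d- cells.

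In resting cells, NF-kB dimers are held in the cytoplasm by inhibitors of the I kappa B family. Signals from the B cell receptor, Toll-like receptors or CD40 lead to phosphorylation and loss of these inhibitors, and the freed dimers of p50, c-Rel and p65 enter the nucleus and bind kappa B sites. Several of the induced genes encode inhibitors themselves, such as I kappa B alpha and A20, which closes a negative feedback loop. In mice the marginal zone B cell compartment is known to depend on several genes of this family, Nfkb1 and Nfkbid among them.

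Of the 10 genes, 8 matched the RefSeq table of start sites on GRCm38.p6 (mm10), with 11 start sites in all. Nfkb1 and Nfkbiz were not matched. The 250 bases before a start held the kappa B consensus at 6 of the 11 sites, which belong to 6 of the 8 genes, against 3.9% of 32851 start sites of all genes. The motif is 10 bases long and was searched on both strands, and a match is a match of letters, not a measured binding site. The 6 starts with a match to the consensus are shown because all of them lie in a measured region described below. They are written 5' to 3' along the gene, from RefSeq, and the capitals mark the matches.
Rel (chr11:23770970-23771219, minus strand): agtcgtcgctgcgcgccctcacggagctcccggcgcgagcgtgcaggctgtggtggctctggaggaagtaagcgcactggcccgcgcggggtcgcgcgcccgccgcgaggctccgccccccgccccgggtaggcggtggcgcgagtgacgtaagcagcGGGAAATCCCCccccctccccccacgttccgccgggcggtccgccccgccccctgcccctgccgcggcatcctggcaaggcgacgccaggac
Nfkbia (chr12:55492648-55492897, minus strand): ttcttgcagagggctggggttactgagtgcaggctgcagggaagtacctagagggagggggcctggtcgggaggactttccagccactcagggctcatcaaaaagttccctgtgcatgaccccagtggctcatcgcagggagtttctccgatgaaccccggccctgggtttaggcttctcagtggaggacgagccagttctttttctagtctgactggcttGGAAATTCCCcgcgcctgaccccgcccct
Nfkbie (chr17:45555450-45555699, plus strand): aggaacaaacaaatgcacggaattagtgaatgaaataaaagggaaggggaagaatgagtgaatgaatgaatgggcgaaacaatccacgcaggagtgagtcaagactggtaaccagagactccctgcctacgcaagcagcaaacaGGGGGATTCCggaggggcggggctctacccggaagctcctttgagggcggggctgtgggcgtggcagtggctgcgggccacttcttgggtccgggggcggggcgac
Nfkbid (chr7:30422156-30422405, plus strand): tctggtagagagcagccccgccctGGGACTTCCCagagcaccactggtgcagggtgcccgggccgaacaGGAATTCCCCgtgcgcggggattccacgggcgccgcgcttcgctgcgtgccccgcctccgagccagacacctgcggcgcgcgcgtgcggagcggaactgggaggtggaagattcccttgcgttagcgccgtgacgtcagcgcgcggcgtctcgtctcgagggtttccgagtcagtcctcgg
Tnfaip3 (chr10:19015411-19015660, minus strand): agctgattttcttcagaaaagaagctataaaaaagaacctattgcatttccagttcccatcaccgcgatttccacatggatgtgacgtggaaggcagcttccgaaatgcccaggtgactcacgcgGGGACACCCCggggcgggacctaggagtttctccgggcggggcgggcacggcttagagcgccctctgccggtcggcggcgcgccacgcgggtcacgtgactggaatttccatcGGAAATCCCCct
Tnip1 (chr11:54962941-54963190, minus strand): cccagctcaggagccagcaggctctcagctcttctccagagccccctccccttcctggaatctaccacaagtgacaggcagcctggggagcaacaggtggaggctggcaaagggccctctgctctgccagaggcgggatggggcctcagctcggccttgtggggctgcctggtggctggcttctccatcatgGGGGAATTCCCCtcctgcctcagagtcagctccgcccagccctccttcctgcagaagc
The matches of Rel and of Tnip1 are overlapping readings of 1 stretch on both strands. In Tnfaip3 a match ended 3 bases before the start site, and in Nfkbia 20 bases before it.

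The libraries held 3169966 reads in the regions (the second knockout MZB library) to 10375328 (the second wild-type FoB library). Levels are given as deposited, in reads per 1000000 reads in the listed regions (rppm), and 3 reads, the limit that a count of 0 allows, correspond to 0.289 to 0.946 rppm. These limits cover counting error only. In bulk libraries a smaller share of cells with an open region and a lower accessibility in each cell cannot be told apart. The summed accessibility at Kdm1a was 25.05 ± 5.55 rppm in knockout MZB and 22.98 ± 6.05 rppm in wild-type MZB, and 20.56 ± 0.061 rppm in knockout FoB and 22.77 ± 1.92 rppm in wild-type FoB (SD, n = 3 each), which does not measure the deletion. Of 9 marginal zone marker genes, 8 had a higher summed accessibility and 1 a lower one in knockout MZB than in knockout FoB, and 7 a higher and 1 a lower one in wild-type MZB than in wild-type FoB. The lower one was Cr2, which encodes CD21, with 279.1 ± 11.5 rppm in knockout MZB and 330.5 ± 3.2 in knockout FoB, and 295.7 ± 9.42 in wild-type MZB and 348.3 ± 23.2 in wild-type FoB, although the MZB gate took CD21hi cells. Of 8 follicular markers, 6 were lower in MZB in both genotypes, and of 7 general B cell markers 2 were lower in the knockout and 6 in the wild-type comparison. Markers of other cells also differed between the gates. Over all genes, 42.2% were called between the gates in the knockout and 48.3% in the wild-type comparison. Between knockout and wild-type MZB, 2.93% of all genes were called. Of 6 NK cell markers, 4 were higher and 1 lower in MZB in both genotypes. Of 5 T cell markers with a region, 4 were higher in knockout MZB than in knockout FoB and 1 in wild-type MZB than in wild-type FoB, and the list summed to 94.0 to 111.4 rppm in knockout MZB, 96.9 to 103.4 in wild-type MZB, 60.2 to 68.8 in knockout FoB and 62.1 to 66.6 in wild-type FoB. The other 4 of the 9 listed T cell markers had no region. Of 7 myeloid markers with a region, 5 were higher and 0 lower in knockout MZB than in knockout FoB, 5 higher and 1 lower in wild-type MZB than in wild-type FoB, and 2 higher in knockout than in wild-type MZB, and the list summed to 327.7 to 359.9 rppm in knockout MZB, 293.6 to 300.4 in wild-type MZB, 269.9 to 286.9 in knockout FoB and 269.8 to 270.3 in wild-type FoB. Of 7 immature B cell markers with a region, 4 were higher in knockout than in wild-type MZB, and 1 was higher and 3 lower in MZB than in FoB in the knockout and 1 higher and 5 lower in the wild-type libraries. Their sums were 665.0 to 683.9 rppm in knockout MZB, 511.7 to 550.0 in wild-type MZB, 786.3 to 873.3 in knockout FoB and 757.3 to 825.6 in wild-type FoB. Their part in the results was not tested.

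As deposited, regions of the NF-kB genes were called between the 2 cell types about as often as all tested regions. None was called between the genotypes. In knockout MZB against wild-type MZB, 0 of the 139 regions passed an adjusted p of 0.05 in limma, against 0.777% of all regions (0.502% higher and 0.275% lower). In knockout FoB against wild-type FoB 0 passed, against 0.539% (0.32% higher and 0.219% lower). Calls between the genotypes were so rare over all regions that 0 of 139 does not set these genes apart. In knockout MZB against knockout FoB, 26 were higher and 19 lower, which is 32.4% against 32.7% of all regions (23.2% higher and 9.47% lower). In wild-type MZB against wild-type FoB, 32 were higher and 18 lower, which is 36.0% against 35.7% (24.2% higher and 11.4% lower). Under the deposited scaling the share of member regions that differed was thus close to that over all regions. Member regions were stronger than most, with a median mean level of 9.501 rppm against 3.868 over all regions. The shares were not matched for level. These comparisons of the cell types share no library, and 33 member regions were called in the same direction in both, 22 higher and 11 lower, with 0 in opposite directions. That is 73.3% of the calls in the knockout libraries and 66.0% of those in the wild-type libraries, against 74.8% and 68.6% over all regions. The split by direction depended on the scaling, and the cause was not tested. As deposited, the median region of the whole table stood at 0.14 on the log2 scale in the knockout and 0.18 in the wild-type comparison. With quantile normalisation these medians were -0.08 and -0.09, and the member regions split into 19 higher and 24 lower in the knockout and 21 higher and 25 lower in the wild-type comparison. All 89782 tested regions then split into 12246 higher and 10867 lower, and 13509 higher and 13806 lower. With edgeR's TMM scaling the medians were 0.0048 and 0.05, and the member regions split into 19 higher and 38 lower, and 24 higher and 42 lower. All tested regions split into 16475 higher and 14695 lower, and 18145 higher and 17052 lower. With TMM the members thus had more lower than higher calls, while all regions had more higher ones. The plot of fold changes by gene shows how the calls were spread over the genes.

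**Figure D1:**
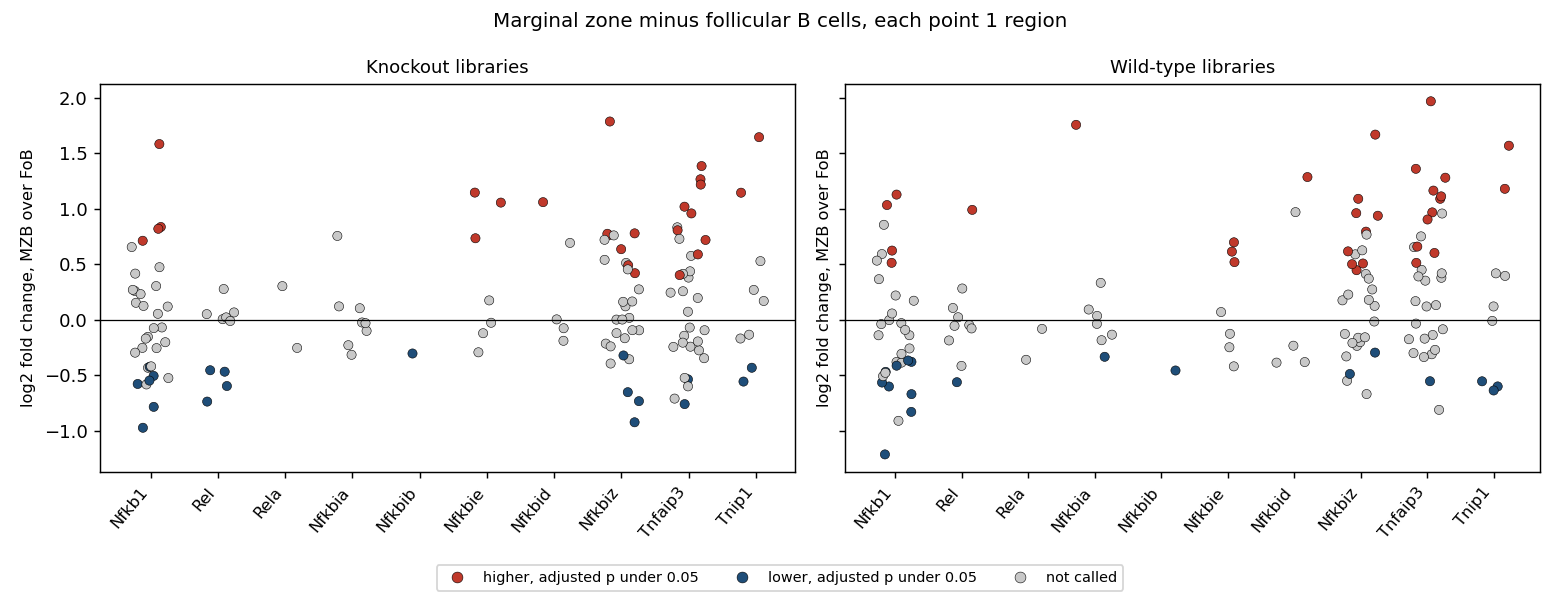
Fold change of each tested region between MZB and FoB, on the log2(rppm + 0.5) scale, by gene, in knockout libraries (left) and wild-type libraries (right). Each point is 1 region, coloured by its limma call. Tnfaip3, Nfkbiz and Nfkb1 have the most calls and also the most tested regions (33, 31 and 33), with 26 higher and 19 lower in the knockout and 32 higher and 18 lower in the wild-type libraries over all genes under the deposited scaling, a balance that turned to 19 and 24, and 21 and 25, under quantile normalisation.

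No region at a start site was called higher in MZB. Of the 10 regions that covered a start, 0 were higher and 4 lower in knockout MZB than in knockout FoB, and 0 were higher and 5 lower in wild-type MZB than in wild-type FoB. Start regions of all genes had more lower than higher calls too, with 9.31% higher and 33.2% lower of 9948 in the knockout comparison and 9.41% higher and 38.9% lower in the wild-type comparison. The median log2 fold change of the 10 was -0.27 and -0.38, against -0.19 and -0.22 over all start regions. The limma calls are thus close to those at start regions in general. Quantile normalisation, edgeR and DESeq2 also called 0 of the 10 higher. Quantile normalisation called 3 of them lower in the knockout and 5 in the wild-type comparison, edgeR 7 and 10, and DESeq2 6 and 8. Under these settings the 10 were not compared with the start regions of all genes. Of the 81 tested member regions outside the gene bodies, 20 were higher and 5 lower in the knockout comparison (24.7% and 6.17%, against 25% and 6.51% of all regions that cover no start), and 26 higher and 1 lower in the wild-type comparison (32.1% and 1.23%, against 26.1% and 8.01%). Under limma the knockout shares outside the gene bodies were thus close to those of regions that cover no start. With TMM the knockout comparison of these 81 had 15 in each direction and the wild-type comparison 18 higher and 13 lower. Quantile normalisation gave 14 higher and 8 lower in the knockout, and 16 higher and 7 lower in the wild-type comparison. DESeq2 gave 9 higher and 4 lower, and 10 higher and 6 lower. These counts under other scalings were not compared with other regions. The 48 tested member regions within a gene that cover no annotated start had more lower than higher calls in limma. In the knockout comparison 6 were higher and 10 lower (12.5% and 20.8%), and in the wild-type comparison 6 and 12 (12.5% and 25%). They departed from the shares of all regions that cover no start, which were not split by place. This departure was not tested. Per kb of region, as a mean over all 12 libraries, the start region held 75.7 rppm per kb at Nfkbib, 74.7 at Rel, 55.3 at Nfkbia, 53.4 at Tnfaip3, 50.9 at the strongest Nfkbid start, 45.0 at Nfkbie, 20 at Tnip1 and 18.9 at Rela. These means pool cell types in which several of the regions differ, so they give no order within a cell type.

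**Figure D2:**
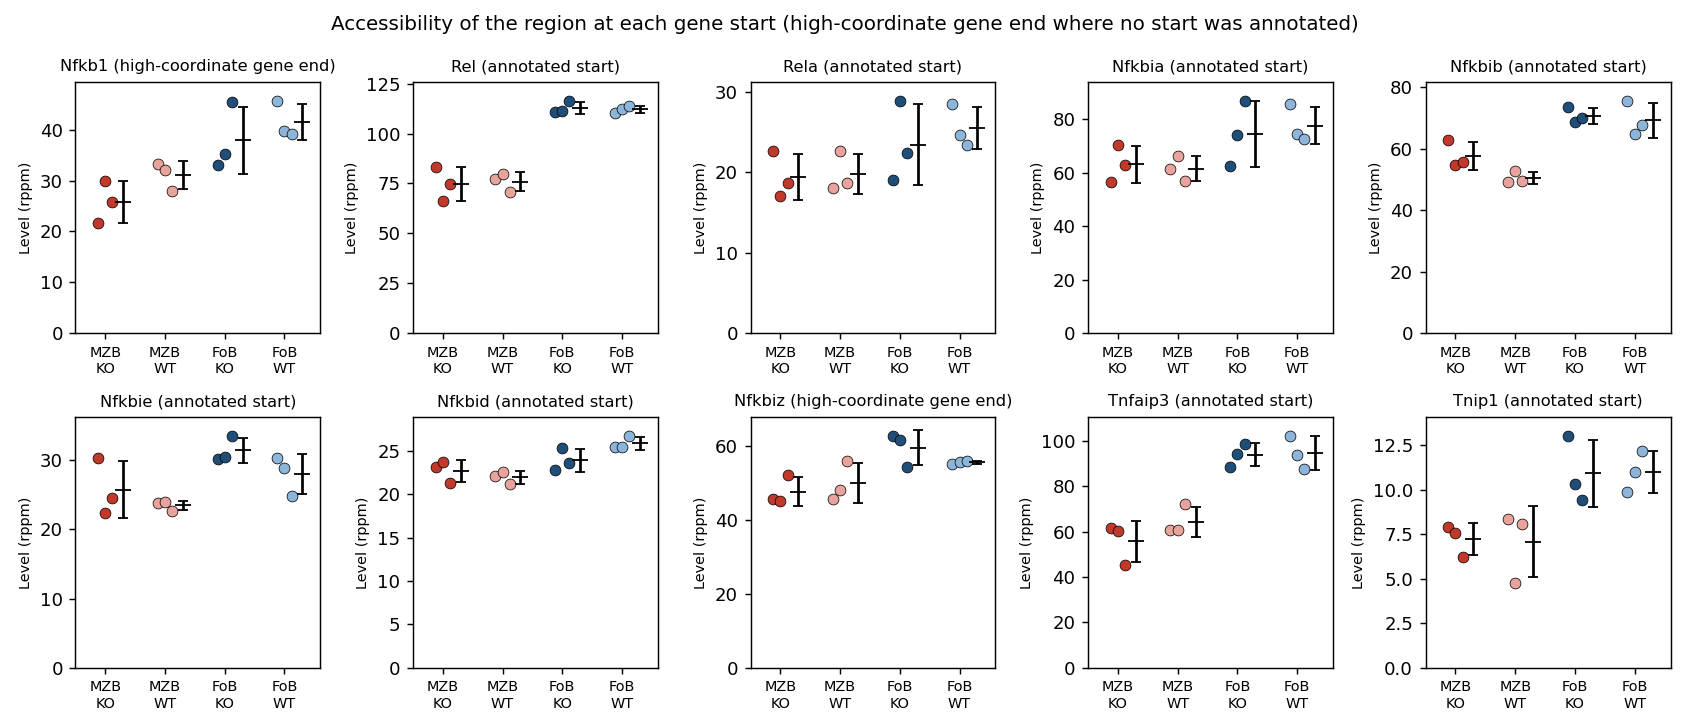
Accessibility in rppm of the region at the start of each gene, or, for Nfkb1 and Nfkbiz, at the high-coordinate end of the gene. Points are single libraries and bars the mean ± SD of the 3 libraries of a group. At Rel and Tnfaip3 every MZB library lies below every FoB library of either genotype, while knockout and wild-type libraries of 1 cell type overlap.

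Among the subunits, Rel showed the clearest difference at its start. Rel encodes c-Rel, the subunit most tied to lymphocyte activation. Its start region (chromosome 11, 23770632 to 23771889 on mm10, the strongest of its 10 regions) held 83.5, 66.2 and 74.8 rppm in the knockout MZB libraries and 77.5, 79.8 and 70.6 in wild-type MZB, against 110.7, 111.4 and 116.4 in knockout FoB and 110.1, 112.4 and 113.9 in wild-type FoB. All 6 MZB libraries thus lay below all 6 FoB libraries. The log2 fold change was -0.60 ± 0.08 in the knockout (adjusted p = 6.16e-07) and -0.56 ± 0.08 in the wild-type comparison (adjusted p = 1.57e-06), and it was called under all 22 alternative settings in both. Knockout and wild type differed here by -0.03 in MZB and 0.01 in FoB. In the knockout libraries 4 Rel regions were lower in MZB and 0 higher, and in the wild-type libraries 1 was lower and 1 higher. The higher one, 12.9 kb before the start, was weak, with 4.07 ± 1.02 rppm in wild-type MZB and 1.81 ± 0.568 in wild-type FoB (log2 0.99, adjusted p = 0.0207), lost its call without wild-type MZB library 2 or 3 or wild-type FoB library 3, and was also not called with quantile normalisation or by edgeR or DESeq2. It stood at 2.57 ± 1.03 rppm in knockout MZB and 2.68 ± 1.44 in knockout FoB.

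Nfkb1 encodes p105, which is processed to p50, and p105 itself acts as an inhibitor. It had 34 regions, 25 of them within the gene (chromosome 3, 135584655 to 135691969). In the knockout libraries 4 were higher and 6 lower in MZB than in FoB, and in the wild-type libraries 4 higher and 9 lower. Its strongest region, within the gene at 135628502 to 135629317, held 52.8 ± 3.75 rppm in knockout MZB and 58.7 ± 3.64 in knockout FoB, which did not pass (log2 -0.15, adjusted p = 0.225), and 47.1 ± 3.68 in wild-type MZB and 61.2 ± 1.19 in wild-type FoB, which did (log2 -0.38, adjusted p = 0.00169), though not with quantile normalisation. Near the high-coordinate end, the region at 135690580 to 135691147 held 15.6, 14.5 and 17.4 rppm in knockout MZB and 19.2, 17.0 and 17.4 in wild-type MZB, against 30.2, 25.8 and 26.9 in knockout FoB and 33.4, 30.1 and 23.4 in wild-type FoB. It was lower in MZB in both genotypes, by -0.78 ± 0.14 and -0.67 ± 0.14, with adjusted p-values of 2.19e-05 and 0.000172. The next region, which covers that end itself, was lower by -0.55 in the knockout and -0.41 in the wild-type comparison (adjusted p = 0.000842 and 0.00958), and lost its call in the second without wild-type MZB library 3 or wild-type FoB library 1. The opposite held for a weak region further inside the gene, at 135614397 to 135614677. It held 4.20, 8.52 and 4.73 rppm in knockout MZB and 5.67, 5.05 and 4.35 in wild-type MZB, against 1.86, 1.03 and 1.78 in knockout FoB and 2.46, 2.51 and 1.67 in wild-type FoB. No MZB library overlapped a FoB library there, and the region was higher by 1.58 on the log2 scale in knockout MZB than in knockout FoB (adjusted p = 7.64e-05) and by 1.03 in wild-type MZB than in wild-type FoB (adjusted p = 0.0064), although the wild-type call was lost with quantile normalisation and with DESeq2. Just outside the gene, 3.64 kb below its low-coordinate end, the region at 135580400 to 135581011 was higher in wild-type MZB, with 32.3 ± 2.86 rppm against 22.7 ± 3.93 in wild-type FoB (log2 0.51, adjusted p = 0.00132, not called by edgeR or DESeq2), and held 32.5 ± 2.6 in knockout MZB and 27.6 ± 2.1 in knockout FoB.

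Rela, which encodes p65, had 3 regions, of which 2 were tested and neither passed in any comparison. Its start region (chromosome 19, 5636833 to 5637999) averaged 19.4 ± 2.88 rppm in knockout MZB and 23.4 ± 4.98 in knockout FoB, and 19.8 ± 2.46 in wild-type MZB and 25.5 ± 2.66 in wild-type FoB. The wild-type difference of -0.36 missed the threshold narrowly (adjusted p = 0.0508), and was called under 11 of 22 alternatives, edgeR and DESeq2 among them. The strongest region, 0.545 kb beyond the other end of the gene, averaged 31.2 ± 0.586 rppm in knockout MZB and 25.2 ± 1.89 in knockout FoB, and 27.0 ± 4.29 in wild-type MZB and 28.4 ± 2.08 in wild-type FoB, and neither pair passed (adjusted p = 0.0542 and 0.653).

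Of the classical cytoplasmic inhibitors, Nfkbib was lower in MZB at its start in both genotypes and Nfkbia in the wild-type libraries, while Nfkbie was higher in MZB at regions inside and beside the gene. Nfkbia encodes I kappa B alpha, the inhibitor that is lost and made anew fastest. Its start region (chromosome 12, 55491656 to 55492909), the strongest of its 8, held 56.4, 70.3 and 63.0 rppm in knockout MZB and 62.5, 74.2 and 86.9 in knockout FoB, and 61.5, 66.2 and 56.9 in wild-type MZB and 85.7, 74.5 and 72.8 in wild-type FoB. The wild-type libraries did not overlap and the difference passed (-0.33 ± 0.10, adjusted p = 0.0106), although not without wild-type MZB library 3 or wild-type FoB library 1. The knockout libraries overlapped, and the difference of -0.23 did not pass (adjusted p = 0.0874). A weak region 24.7 kb downstream of the start was 3.38-fold higher in wild-type MZB than in wild-type FoB, with 2.97, 7.44 and 3.73 rppm against 1.095, 1.06 and 0.716 (adjusted p = 0.000256). In the knockout libraries the same region held 3.04 ± 1.29 rppm in MZB and 1.63 ± 0.855 in FoB and did not pass (adjusted p = 0.116).

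Nfkbib, which encodes I kappa B beta, had a single region, at its start (chromosome 7, 28766142 to 28766962). The region also covers a start of Sirt2, so its reads belong to both genes. It held 63.0, 54.6 and 55.6 rppm in knockout MZB and 49.1, 52.6 and 49.5 in wild-type MZB, against 73.7, 68.6 and 70.2 in knockout FoB and 75.6, 64.7 and 67.6 in wild-type FoB. All MZB libraries were below all FoB libraries, by -0.30 ± 0.09 in the knockout (adjusted p = 0.0114) and -0.45 ± 0.09 in the wild-type comparison (adjusted p = 0.000153). Both calls were lost with quantile normalisation, and the knockout call also without knockout MZB library 2.

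Nfkbie encodes I kappa B epsilon, an inhibitor abundant in B cells, where it holds c-Rel dimers. Of its 7 regions, 3 were higher and 0 lower in MZB in each genotype. Its start region (chromosome 17, 45555415 to 45556019) was not among them, with 25.8 ± 4.1 rppm in knockout MZB and 31.4 ± 1.85 in knockout FoB, and 23.5 ± 0.662 in wild-type MZB and 28.01 ± 2.87 in wild-type FoB. A region within the gene, 4.3 kb after the start, held 25.7, 24.6 and 20.1 rppm in knockout MZB and 21.3, 19.4 and 20.5 in wild-type MZB, against 14.9, 13.4 and 13.2 in knockout FoB and 11.2, 13.9 and 12.2 in wild-type FoB. It was 1.66-fold and 1.62-fold higher in MZB (adjusted p = 0.000102 and 0.000177), and called under all 22 alternatives in both genotypes. The region 123 bp beyond the far end of the gene averaged 13.1 ± 1.4 rppm in knockout MZB and 5.70 ± 1.01 in knockout FoB, a 2.21-fold difference (adjusted p = 6.16e-06), and 12.3 ± 1.44 in wild-type MZB and 7.82 ± 0.662 in wild-type FoB, a 1.53-fold difference (adjusted p = 0.00798, not called with quantile normalisation or by DESeq2). The third, 0.979 kb before the gene, is described with the knockout comparisons.

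Nfkbid and Nfkbiz encode nuclear members of the I kappa B family, I kappa B NS and I kappa B zeta, which bind p50 at target genes instead of holding dimers in the cytoplasm. Nfkbid (chromosome 7, 30421731 to 30428749) had 5 regions, 3 of them at its 3 start sites, and none of these passed in any comparison. The strongest, at the middle start, held 22.7 ± 1.24 rppm in knockout MZB and 23.9 ± 1.31 in knockout FoB, and 22.0 ± 0.74 in wild-type MZB and 25.9 ± 0.743 in wild-type FoB. In the wild-type libraries the first start missed the threshold at an adjusted p of 0.0514, with 15.2 ± 2.68 rppm in MZB and 19.8 ± 1.4 in FoB, and was called under 13 of 22 alternatives. A region 1.44 kb beyond the far end of the gene, at 30430184 to 30430631, differed in the other direction. It held 5.36, 4.73 and 5.32 rppm in knockout MZB and 8.37, 5.32 and 5.91 in wild-type MZB, against 2.48, 1.24 and 3.30 in knockout FoB and 2.19, 2.70 and 2.15 in wild-type FoB. That is 2.09-fold and 2.44-fold higher in MZB (adjusted p = 0.00387 and 0.000504). The knockout call was lost without knockout FoB library 2, with quantile normalisation and with DESeq2.

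Nfkbiz (chromosome 16, 55811375 to 55838954) had 31 regions, 24 of them outside the gene and up to 239.0 kb away. In the knockout libraries 7 were higher and 4 lower in MZB, and in the wild-type libraries 9 higher and 2 lower. The strongest region, within the gene at 55821408 to 55822575, was among the lower ones. It held 73.5, 56.5 and 69.5 rppm in knockout MZB and 79.3, 74.4 and 74.0 in wild-type MZB, against 110.3, 98.0 and 103.9 in knockout FoB and 109.2, 110.5 and 100.3 in wild-type FoB. No MZB library reached a FoB library, and the log2 fold change was -0.65 ± 0.09 in the knockout (adjusted p = 3.41e-07) and -0.49 ± 0.09 in the wild-type comparison (adjusted p = 3.71e-05, lost with quantile normalisation). The region at the high-coordinate end was lower in knockout MZB, with 47.5 ± 3.88 rppm against 59.5 ± 4.66 in knockout FoB (adjusted p = 0.0109, lost without knockout FoB library 1), and held 49.9 ± 5.41 in wild-type MZB and 55.5 ± 0.421 in wild-type FoB (adjusted p = 0.226). Of the regions far below the gene, 2 named ones were higher in MZB. The one at 55757192 to 55757677, 53.7 kb away, held 20.8, 8.52 and 14.2 rppm in knockout MZB and 16.7, 16.8 and 17.1 in wild-type MZB, against 8.07, 7.83 and 7.37 in knockout FoB and 7.39, 9.93 and 8.12 in wild-type FoB. The fold was 1.71 in the knockout (adjusted p = 0.00275, lost without knockout MZB library 1) and 1.95 in the wild-type comparison (adjusted p = 0.000248). A weak region 93.4 kb away was 3.45-fold and 3.18-fold higher in MZB (adjusted p = 0.00052 and 0.000985), from 2.04 ± 0.28 rppm in knockout MZB against 0.275 ± 0.315 in knockout FoB, and 3.29 ± 1.24 in wild-type MZB against 0.646 ± 0.0879 in wild-type FoB, so that the FoB libraries were near the limit of counting.

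Tnfaip3 and Tnip1 encode the ubiquitin-editing enzyme A20 and its partner ABIN-1, which dampen the signalling upstream of I kappa B. Tnfaip3 (chromosome 10, 19000910 to 19015410, minus strand) had 33 regions, only 2 of them within the gene. Its start region, at 19014327 to 19015773, was the strongest and was lower in MZB. It held 61.6, 60.2 and 45.5 rppm in knockout MZB and 60.7, 60.6 and 72.2 in wild-type MZB, against 88.8, 94.1 and 98.9 in knockout FoB and 102.4, 94.0 and 87.6 in wild-type FoB. Again all 6 MZB libraries lay below all 6 FoB libraries, by -0.76 ± 0.10 in the knockout (adjusted p = 1.69e-07) and -0.55 ± 0.10 in the wild-type comparison (adjusted p = 3.22e-05), and both were called under all 22 alternatives. Of all 33 regions assigned to Tnfaip3, 9 were higher and 2 lower in the knockout and 11 higher and 1 lower in the wild-type comparison. The start region was among the lower ones in both. The 31 regions outside the gene, up to 155 kb away, were assigned by distance alone, and their link to Tnfaip3 was not tested. The region 89.2 kb upstream of the start, at 19104584 to 19105163, held 11.2, 8.20 and 7.68 rppm in knockout MZB and 10.3, 10.4 and 11.5 in wild-type MZB, against 2.48, 3.91 and 3.05 in knockout FoB and 3.56, 4.53 and 4.30 in wild-type FoB. It was 2.61-fold and 2.43-fold higher in MZB (adjusted p = 6.42e-06 and 1.93e-05, called under all 22 alternatives). The region 28.2 kb upstream was higher in wild-type MZB by 1.87-fold (adjusted p = 1.66e-08) and by 1.20-fold in knockout MZB, where it did not pass (adjusted p = 0.0585). The direct test between the genotypes at this region did not pass, and is given with the knockout comparisons.

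**Figure D3:**
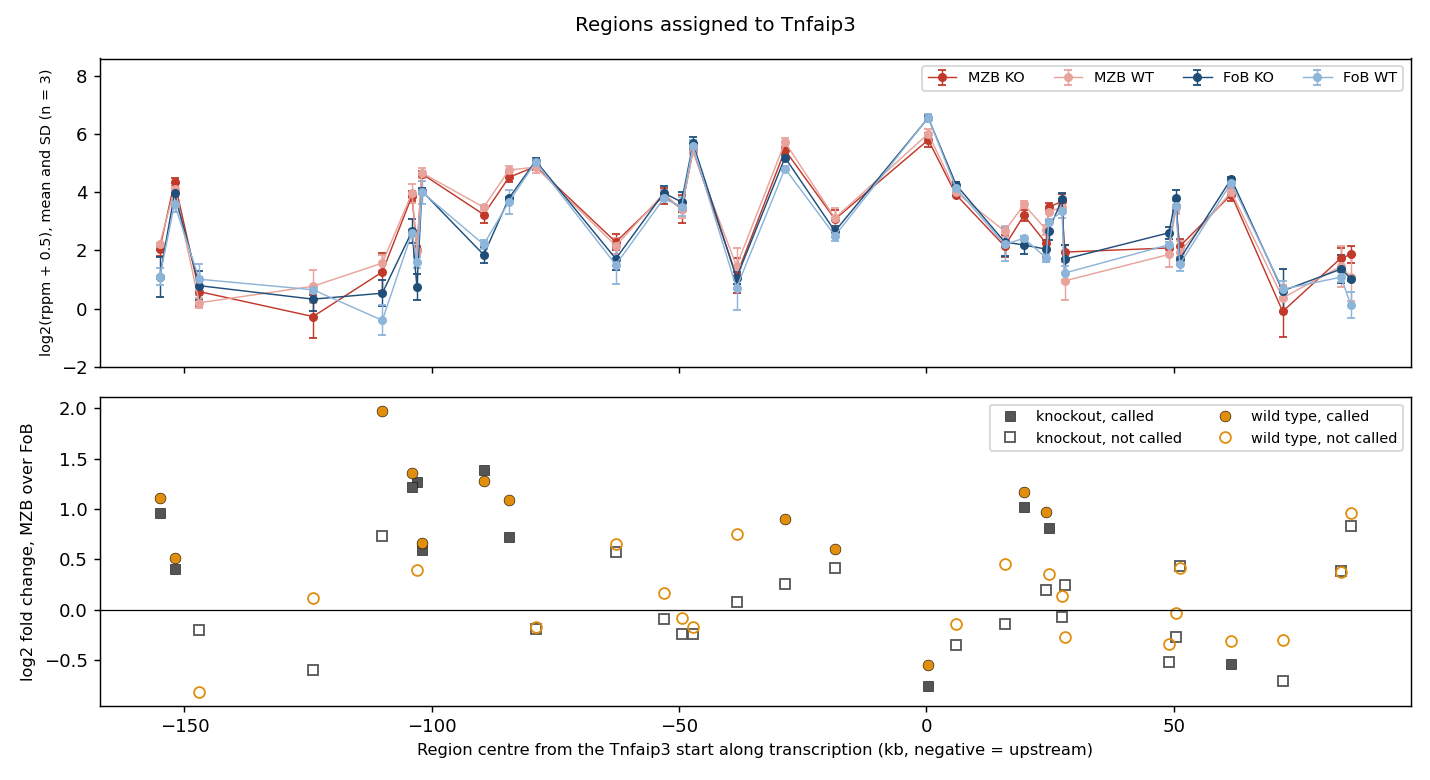
The 33 regions assigned to Tnfaip3 by the distance of their centres from its start, in kb along the direction of transcription. The upper panel gives log2(rppm + 0.5) as the mean ± SD of the 3 libraries of a group, and the lower panel the log2 fold change of MZB over FoB in knockout and wild-type libraries, filled where limma called it. The start region lies below 0 in both genotypes, also under the other scalings, and the called regions upstream of it lie above 0 under the deposited scaling.

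Tnip1 (chromosome 11, 54910787 to 54962956, minus strand) had 9 regions, all within the gene. In the knockout libraries 2 were higher and 2 lower in MZB, and in the wild-type libraries 2 higher and 3 lower. The start region was weak and lower in MZB, with 7.93, 7.57 and 6.21 rppm in knockout MZB and 8.37, 4.79 and 8.09 in wild-type MZB, against 13.04, 10.3 and 9.40 in knockout FoB and 9.86, 10.99 and 12.2 in wild-type FoB. The log2 fold changes of -0.56 ± 0.20 and -0.64 ± 0.20 passed (adjusted p = 0.0313 and 0.0124). Leaving out knockout MZB library 3, or knockout FoB library 1 or 2, ended the first call, and leaving out wild-type MZB library 2 or wild-type FoB library 3 ended the second. The strongest region, 6.92 kb inside the gene, averaged 30.6 ± 0.438 rppm in knockout MZB and 41.4 ± 0.42 in knockout FoB, and 29.6 ± 4.5 in wild-type MZB and 44.7 ± 1.8 in wild-type FoB (log2 -0.43 and -0.60, adjusted p = 0.00227 and 4.15e-05). A pair of neighbouring regions, 26.6 and 27.3 kb inside the gene, went the other way. The one at 54936041 to 54936632 held 11.2, 13.9 and 11.8 rppm in knockout MZB and 16.5, 10.6 and 15.6 in wild-type MZB, against 6.83, 5.56 and 3.81 in knockout FoB and 4.38, 4.72 and 4.06 in wild-type FoB. It was 2.21-fold and 2.97-fold higher in MZB (adjusted p = 4.41e-05 and 2.02e-07). Its neighbour at 54935396 to 54935819 was 3.13-fold and 2.27-fold higher (adjusted p = 2.96e-05 and 0.00154), and both were called under all 22 alternatives in both genotypes.

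Between the genotypes no region of these genes was called as deposited, but 1 in MZB, the Nfkbie region described next, was called under some other settings. In MZB the log2 fold changes of knockout over wild type ran from -1.04 to 0.99, and 10 of the 139 regions had an unadjusted p under 0.05, which is 7.19% against 13.3% of all regions. In FoB they ran from -0.84 to 0.93 with 14 such regions, 10.1% against 9.05% of all. The smallest adjusted p was 0.065 in MZB and 0.11 in FoB. Quantile normalisation called 1 region higher in MZB (adjusted p = 0.0294, with 14 regions at an unadjusted p under 0.05) and 0 in FoB, with 11. A pseudocount of 2, and a fit of the compared groups alone, also called 1 in MZB. On the recovered reads edgeR called 0 in both cell types, with 7 and 16 regions at an unadjusted p under 0.05, and DESeq2 called 0 of the 116 and 122 regions to which it gave an adjusted p, with 3 at an unadjusted p under 0.05 in each. The 95% confidence interval of the fold change lay within 2-fold in either direction for 118 of the 139 regions in MZB and 117 in FoB, and within 1.5-fold for 71 and 67. The test of whether the knockout effect differed between the cell types called 0 regions, against 0.00111% of all regions, and 5 (3.6%) had an unadjusted p under 0.05, against 6.22% of all regions. Quantile normalisation, with 8 at an unadjusted p under 0.05, called 0 too, and edgeR and DESeq2 called 0 as well, with 7 and 1 at an unadjusted p under 0.05. For quantile normalisation, edgeR and DESeq2 the counts at an unadjusted p under 0.05 were not compared with all regions.

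**Figure D4:**
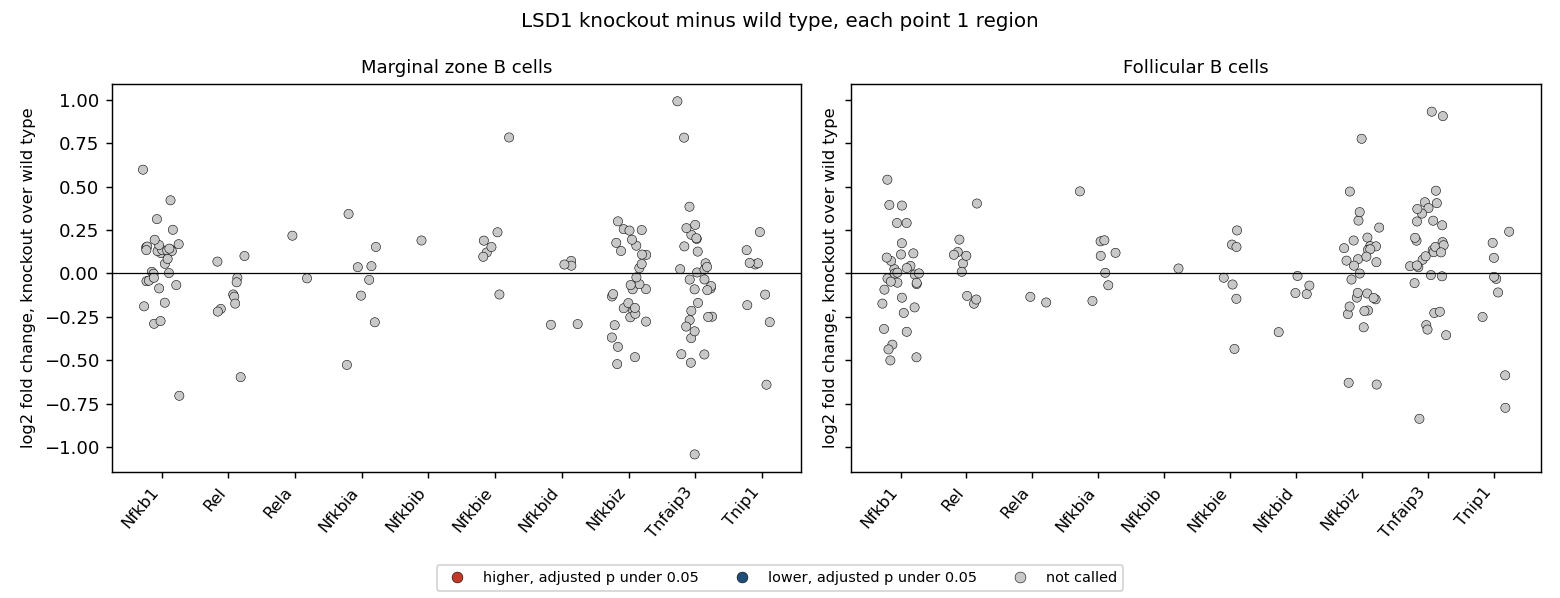
Fold change of each tested region between LSD1 knockout and wild-type libraries, on the log2(rppm + 0.5) scale, by gene, in MZB (left) and FoB (right). Each point is 1 region, and none was called by limma under the deposited scaling, with the smallest adjusted p at 0.065 in MZB and 0.11 in FoB. Quantile normalisation called 1 region in MZB.

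The region nearest to the threshold, named after its values were seen, lay 0.979 kb before Nfkbie (chromosome 17, 45554403 to 45554721). It held 14.2, 16.1 and 17.1 rppm in knockout MZB, against 12.9, 7.71 and 7.15 in wild-type MZB, and 6.21, 8.03 and 7.88 in knockout FoB, against 4.65, 8.10 and 5.97 in wild-type FoB. The 3 knockout MZB libraries were above every other library, and wild-type MZB library 1 was the closest to them. The log2 fold change was 0.78 ± 0.21 in MZB (adjusted p = 0.065) and 0.25 ± 0.21 in FoB (adjusted p = 0.802). In MZB 5 of the 22 alternatives called it, with adjusted p-values from 0.0183 to 0.308 over all of them. These were a pseudocount of 2, the compared groups alone, quantile normalisation, leaving out wild-type MZB library 1, which gave 1.04, and leaving out wild-type FoB library 1. Between the cell types it was 2.08-fold higher in knockout MZB than in knockout FoB (adjusted p = 0.00014, called under all 22 alternatives) and 1.43-fold higher in wild-type MZB than in wild-type FoB (adjusted p = 0.0499), where 14 of the 22 alternatives ended the call, among them leaving out either wild-type MZB library 1 or wild-type FoB library 1.

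At Tnfaip3 the region 28.2 kb upstream of the start (19043652 to 19044406) held 45.9, 44.2 and 39.9 rppm in knockout MZB, against 55.1, 46.8 and 55.4 in wild-type MZB, and 38.7, 34.4 and 35.3 in knockout FoB, against 29.0, 27.9 and 26.3 in wild-type FoB. The knockout libraries lay below the wild-type ones in MZB and above them in FoB, without overlap in either. Neither difference passed (log2 -0.27 ± 0.11, adjusted p = 0.245, and 0.38 ± 0.11, adjusted p = 0.11), and nor did the test of the difference between them (-0.65 ± 0.15, unadjusted p = 0.000118, adjusted p = 0.5). None of the 22 alternatives called any of the 3. Knockout and wild-type libraries lay apart without overlap in 17.7% of all regions in MZB and 14.7% in FoB. Among the member regions these shares were 13.7% and 17.3%.

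**Figure D5:**
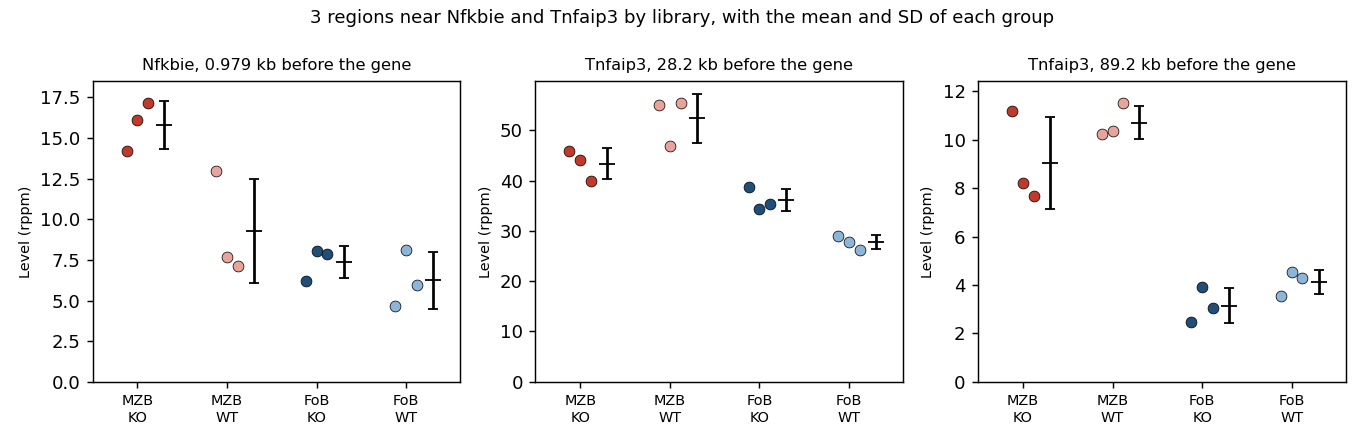
Accessibility in rppm by library in 3 regions, with the mean ± SD of each group (n = 3). The region before Nfkbie is highest in knockout MZB, the Tnfaip3 region 28.2 kb upstream narrows its gap between cell types in the knockout libraries without a call, and the Tnfaip3 region 89.2 kb upstream is higher in MZB in both genotypes. The region 28.2 kb upstream was picked for its p, the smallest at Tnfaip3 in the test of the difference between the knockout effects.

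Summed over all regions of a gene, the totals of the 10 genes gave 0 calls between the genotypes in either cell type, against 2.93% of 16921 genes in MZB (1.65% higher and 1.27% lower) and 1.38% in FoB (0.839% higher and 0.544% lower). The smallest unadjusted p was 0.0101, at Nfkbie, in MZB and 0.0346, at Tnfaip3, in FoB. The test of the difference between the cell types also called 0, against 0.0118% of genes (0.00591% in each direction). Between knockout MZB and knockout FoB, where 42.2% of genes were called, the totals of Nfkb1, Rel and Nfkbib were lower in MZB and that of Nfkbie higher. Between wild-type MZB and wild-type FoB, where 48.3% of genes were called, those of Nfkb1, Rel, Nfkbib and Nfkbia were lower and that of Tnfaip3 higher. Rel totalled 228.6 ± 6.54 rppm in knockout MZB and 276.0 ± 7.44 in knockout FoB (log2 -0.27, adjusted p = 0.000159), and 239.0 ± 3.08 in wild-type MZB and 277.7 ± 16.7 in wild-type FoB (log2 -0.21, adjusted p = 0.00151). Tnfaip3 totalled 410.2 ± 13.8 rppm in knockout MZB and 414.0 ± 20.7 in knockout FoB (log2 -0.01, adjusted p = 0.869), and 433.9 ± 14.1 in wild-type MZB and 381.8 ± 23.1 in wild-type FoB (log2 0.19, adjusted p = 0.00507). The difference between these values had an unadjusted p of 0.0131 and an adjusted p of 0.696. Counting only the regions within the gene turned the Tnfaip3 difference to -0.68 in the knockout comparison (adjusted p = 3.63e-08) and -0.48 in the wild-type comparison, both called lower. Nfkbie totalled 110.0 ± 4.95 rppm in knockout MZB and 89.6 ± 3.72 in knockout FoB (log2 0.29, adjusted p = 0.00135, but 0.08 and 0.388 over the regions within the gene alone), and 96.1 ± 6.38 in wild-type MZB and 86.9 ± 5.4 in wild-type FoB (adjusted p = 0.0907). The Nfkbia call (adjusted p = 0.0494) held under 8 of 16 alternatives, and the Nfkb1 call in the knockout libraries (adjusted p = 0.0158) was lost without knockout MZB library 1 or knockout FoB library 1.

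Genes around these members in the pathway were read in the same way, as totals per gene. Of 24 signalling genes between the receptors and the I kappa B kinases, 21 had a region, and Ikbkg, Tab3 and Irak1 had none assigned. The regions given a gene were those on numbered chromosomes, 94069 of 94161. Ikbkg, Tab3 and Irak1 were thus not measured, which says nothing about how open they are. None of the 21 passed between the genotypes, with 2 in MZB and 1 in FoB at an unadjusted p under 0.05. Between knockout MZB and knockout FoB 1 was higher and 10 lower, and between wild-type MZB and wild-type FoB 2 were higher and 12 lower, where over all genes 21.5% and 20.7%, and 23.0% and 25.3%, were higher and lower. The list's median log2 fold change was -0.26 and -0.25, against -0.03 and -0.02 over all genes. With quantile normalisation 1 was higher and 11 lower in the knockout, and 2 higher and 11 lower in the wild-type comparison. Under that scaling 23.0% and 26.3% of all genes were lower. The list's median log2 fold change was then -0.21 and -0.18, against -0.08 and -0.09 over all genes. The most significant of the 21 were Ube2n, which encodes the enzyme that builds lysine-63 ubiquitin chains, and Map3k7, which encodes the kinase TAK1. Ube2n totalled 99.6 ± 5.59 rppm in knockout MZB and 173.9 ± 12.7 in knockout FoB, and 99.5 ± 1.68 in wild-type MZB and 166.6 ± 3.04 in wild-type FoB. Map3k7 was higher in wild-type MZB, with 176.2 ± 2.68 rppm against 130.3 ± 4.66 in wild-type FoB. The adjusted p-values of Ube2n and Map3k7 in the wild-type comparison were 6.41e-10 and 5.99e-07. The knockout libraries went the same way at Map3k7, with 180.5, 171.6 and 164.9 rppm in MZB against 136.6, 136.4 and 140.3 in FoB.

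Of 5 noncanonical subunits and other I kappa B-like genes, 0 passed between the genotypes, with 1 in MZB and 0 in FoB at an unadjusted p under 0.05, 2 were lower in knockout MZB than in knockout FoB and 4 in wild-type MZB than in wild-type FoB, and 0 were higher. Of 30 textbook target genes of NF-kB, which include 3 of those 5, 7 were higher and 7 lower between the cell types in the knockout and 9 higher and 10 lower in the wild-type libraries. The shares over all genes, beside both lists, were 21.5% higher and 20.7% lower in the knockout and 23% and 25.3% in the wild-type comparison. The most significant of them was Il6, which encodes an inflammatory cytokine, with 53.4 ± 5.59 rppm in knockout MZB and 16.02 ± 2.52 in knockout FoB, and 54.6 ± 1.41 in wild-type MZB and 13.1 ± 1.49 in wild-type FoB (adjusted p = 6.13e-11 and 2.42e-12). Junb, an AP-1 subunit gene, was lower in knockout MZB, with 93.5 ± 4.08 rppm against 126.6 ± 1.16 in knockout FoB (adjusted p = 1.64e-05). The wild-type libraries went the same way, with 79.1, 94.1 and 86.45 rppm in MZB against 131.1, 128.6 and 116.0 in FoB. Between the genotypes 1 of the 30 target genes was higher and 1 lower in MZB and 1 was higher in FoB, against 2.93% and 1.38% of all genes called. Tnip3, which encodes a further A20-binding protein, rose in both cell types. Its regions totalled 191.0, 196.2 and 210.4 rppm in knockout MZB against 140.9, 142.5 and 139.3 in wild-type MZB, and 175.3, 172.4 and 167.7 in knockout FoB against 109.2, 127.8 and 122.0 in wild-type FoB. Every knockout library was above every wild-type library, by 0.50 ± 0.06 in MZB and 0.52 ± 0.06 in FoB (adjusted p = 2.56e-05 and 1.47e-05), and 2 and 5 of its 16 regions were called higher. Cd86, which encodes a costimulatory ligand, fell in knockout MZB, with 150.2, 160.6 and 153.1 rppm against 190.8, 188.5 and 179.4 in wild-type MZB (-0.27 ± 0.06, adjusted p = 0.0145), and lost the call without knockout MZB library 3 or wild-type MZB library 1 or 2. In FoB, Cd86 was not called, and the test of the difference between the cell types called 0 of the 30 genes. The target gene list and the genes named from it were chosen with earlier results of these data known.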

How the data were processed

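ATAC-seq was measured in 12 libraries, 3 in each of 4 groups assigned by title and lsd1 status. The authors deposited 1 table of reads per 1000000 reads in the listed regions (RPM, here rppm). Per the submitters' processing notes the tools were Bowtie 1.1.1 and MACS2, and the build was mm10. The sources used here state no MACS2 version, read filter, way of merging peaks or Tn5 offset, and not whether positions are 0-based or 1-based, so positions are printed as deposited.

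In each library 100% of the values were whole multiples of 1 read (tolerance 0.01), which gave back the reads. Libraries of a group differed by more than sampling noise, with a chi-square of 1.08 to 1.87 per degree of freedom. Regions that reached 1 rppm in 3 or more libraries were tested with limma 3.58.1 in R 4.3.3 (eBayes with trend) on log2(rppm + 0.5), with 1 coefficient per group, two-sided, with Benjamini-Hochberg adjustment over all 89782 regions and a threshold of 0.05. Fold changes on this scale understate the change of low regions. Every adjusted p comes from limma unless another tool is named, and ± after a log2 fold change is its standard error. edgeR 4.0.16 (quasi-likelihood with TMM) and DESeq2 1.42.0 on the recovered reads, other pseudocounts, filters and scalings, a replicate block and each library left out were alternatives, 22 in all for regions. The steps were tested on simulated data.

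Regions were assigned to the overlapping or nearest of 21896 protein-coding genes of a RefSeq table on GRCm38.p6, which gives no exons, so a region is placed only as within a gene, outside it or at a start. A start region overlaps the window from 250 bases before to 50 after a start. Totals per gene sum rppm over its regions and were tested in the same way, with a region assigned to several genes counted in each. Regions of 1 gene share their libraries and are not replicates. For each gene the strongest region, the start region (or the one nearest a gene end) and, per comparison and direction, the called region with the smallest p were named, 30 regions in all, and 1 was added after its values were seen. Of the pathway lists the 3 genes with the smallest p per comparison were named. Members, lists and tests were chosen with earlier results of these data known.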

Additional observations from a re-analysis of the deposited data

How the results depend on the processing

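No member region or named gene total that was called changed direction under the scaling alternatives, but sums over regions within the gene alone turned the wild-type MZB minus FoB totals of Tnfaip3 to -0.48 and of Nfkbiz to -0.21, both called lower. In knockout against wild-type MZB, 1 member region was called higher instead of 0 with a pseudocount of 2, with only the compared groups in the fit and with quantile normalisation, and 0 to 1 with 1 library left out. In the wild-type MZB and FoB comparison, the 32 regions called higher became 21 with quantile normalisation, 14 with DESeq2, 6 within gene bodies and 19 within 50 kb, and 28 to 36 with 1 library left out, and the 18 called lower became 42 with edgeR and 16 to 21 with 1 library left out. In the knockout comparison, the 26 called higher became 13 with DESeq2, 6 within gene bodies and 14 within 50 kb, and 19 to 27 with 1 library left out, and the 19 called lower became 38 with edgeR and 13 to 20 with 1 library left out. Of the gene totals in the wild-type comparison, 1 was called higher, against 2 with quantile normalisation, 0 within gene bodies and 1 to 2 with 1 library left out (2 without MZB or FoB wild-type library 2), and 4 were called lower, against 8 within gene bodies and 3 to 5 with 1 library left out. In the knockout comparison 1 was higher, against 0 within gene bodies and 1 to 1 with 1 library left out, and 3 were lower, against 5 within gene bodies and 2 to 3 with 1 library left out. All other counts stayed at 0 with 1 library left out. Over the single regions and gene totals, 4299 recomputed values kept their call, 69 gained one, 62 lost one and 2 were reversed. Fewer regions enter the counts within gene bodies and within 50 kb. For the rest the cause was not tested. Over all regions the lower calls also rose with edgeR, from 8503 to 14695 in the knockout and from 10269 to 17052 in the wild-type comparison. Same-numbered libraries did not deviate together (correlations -0.0934 to 0.134, 1 of 12 over 0.1), so replicate numbers were not taken as pairs. With the replicate number as a block, 26 regions were higher and 18 lower in the knockout and 31 higher and 19 lower in the wild-type comparison, and the genotype comparisons and the test of their difference kept 0. Depth limits weak regions most, since 3 reads are up to 0.946 rppm.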

Other observations

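Further pathway genes named by the rule did not pass between the genotypes. Nfkbil1, an I kappa B-like gene, totalled 79.8 ± 9.88 rppm in knockout MZB and 65.2 ± 5.65 in wild-type MZB (log2 0.29, adjusted p = 0.0571 in limma), and was called under 4 of 16 alternatives. Cd80, which encodes a costimulatory ligand, totalled 91.9 ± 8.11 rppm in knockout FoB and 76.4 ± 12.7 in wild-type FoB (log2 0.28, adjusted p = 0.171), and was called when wild-type FoB library 2 was left out. Il6 totalled 16.02 ± 2.52 rppm in knockout FoB and 13.1 ± 1.49 in wild-type FoB (adjusted p = 0.412). In the test of the difference between the cell types, Nfkbil1, Irak4 and Map3k14 had the smallest p-values of the lists, with adjusted p-values of 0.655, 0.711 and 0.711.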
